A study of Homo sapiens with 4 samples.

Results

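The 9 genes described here, HLA-B, HLA-C, HLA-E, HLA-F, B2M, TAP1, TAP2, TAPBP and NLRC5, were taken by Ensembl identifier from the 20348 genes of the deposited count table, and all 9 were present. The table holds 4 libraries of poly-A RNA. K562, a line from chronic myeloid leukemia, and THP-1, a line from acute monocytic leukemia, each received either DMSO or periplocin, a cardiac glycoside, at 100 nM over 72 h. The sample titles call the controls blank, and the library names call them DMSO. Each condition is 1 library, so no spread between replicates can be estimated and no difference between 2 libraries has a replicate check. The library totals lay between 16381149 and 20622694 counts. Levels are given as counts or as CPM, the usual scaling of a count by its library total. Ratios are log2 ratios after TMM scaling of the 2 libraries compared, with a 95% interval that covers counting error only. A gene was called higher or lower when its log2 ratio was at least 1 in size, provided that 1 or both libraries held at least 10 counts for it. In bulk RNA, fewer cells that carry a transcript and less of it per cell cannot be told apart.

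MHC class I molecules carry peptides from inside the cell to its surface, where CD8 T cells read them and where their absence is sensed by natural killer cells. Each molecule is a heavy chain bound to β2-microglobulin. In the endoplasmic reticulum the pump built from TAP1 and TAP2 brings in peptides, and tapasin, the product of TAPBP, holds empty heavy chains at the pump until a peptide fits. NLRC5 is a transcriptional activator of the NLR family that acts on promoters of class I genes together with RFX and NF-Y proteins. K562 is widely used as a natural killer cell target because it displays little class I on its surface.

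The libraries matched their line labels. All 7 K562 markers (GATA1, KLF1, EPOR and 4 globin genes) were called lower in THP-1 than in K562 in DMSO, where 22.1% of all genes were. All 8 THP-1 markers (among them SPI1, CSF1R, ITGAX and FCER1G) were called higher, where 25.0% of all genes were. GATA1, KLF1, HBZ and HBE1 passed the count filter only through K562, and MPO and CSF1R only through THP-1. The direction of these genes was thus set by the filter, while the other markers held at least 10 counts in both DMSO libraries. Of the 6 lymphocyte markers, CD2 and MS4A1 had 0 counts in every library, while CD3D had 121 and 105 counts in the K562 libraries and 0 in both THP-1 libraries. Of the 6 fibroblast and endothelial markers, CDH5 had 0 counts throughout. PECAM1, which monocytes also carry, held most of the counts of that list in THP-1, with 8033 and 10719. Within K562, 3 of the 5 genes of the list that were tested were higher with periplocin and 2 lower, at 64 counts or fewer each.

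Promoters of class I genes are known for a compact run of elements, in which a κB site and an interferon response element lie upstream of a module bound by RFX, CREB and NF-Y. RefSeq promoter sequences (GRCh38.p14) were found for 7 of the 9 genes, that is all but HLA-E and NLRC5, and the 250 bases before each start site were searched on both strands. The motifs were the interferon element in its long form, which is GAAA repeated after 2 free bases, or in its shorter form GAANNGAAA, the CREB core TGACG, the NF-Y site CCAAT and the κB consensus. Matches of the interferon forms can overlap each other, as can κB matches. The promoters of HLA-B, HLA-C and B2M are shown because these genes are the heavy chain that differed most between the lines, its nearest relative here, and the light chain. Capitals mark the motif matches.

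HLA-B, chr6:31357223-31357364, minus strand: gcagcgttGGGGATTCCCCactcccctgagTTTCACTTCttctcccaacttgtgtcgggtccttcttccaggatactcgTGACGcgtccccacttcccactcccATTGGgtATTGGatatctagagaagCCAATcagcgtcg
HLA-C, chr6:31272136-31272292, minus strand: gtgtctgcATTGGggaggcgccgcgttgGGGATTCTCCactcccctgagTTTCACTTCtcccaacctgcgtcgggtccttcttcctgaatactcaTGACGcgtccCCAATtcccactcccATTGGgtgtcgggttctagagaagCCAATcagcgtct
B2M, chr15:44711365-44711480, plus strand: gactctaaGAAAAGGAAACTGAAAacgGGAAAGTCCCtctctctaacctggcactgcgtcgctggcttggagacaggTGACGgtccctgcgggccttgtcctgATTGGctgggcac

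In both HLA-B and HLA-C a κB match, the letters TTTCACTTC, TGACG and a final CCAAT followed each other in that order. HLA-C held an ATTGG before the κB match and a CCAAT after TGACG that HLA-B lacked, and HLA-B held a further ATTGG at -74 to -70. In HLA-B overlapping κB matches lay between -177 and -167 from the start site, the interferon element TTTCACTTC lay at -155 to -147, TGACG at -106 to -102, and an ATTGG at -81 to -77. In HLA-C TTTCACTTC lay at -151 to -143, with TGACG at -105 to -101. B2M held a pair of overlapping long interferon elements between -144 and -129, a κB match at -125 to -116, TGACG at -75 to -71 and ATTGG at -49 to -45. HLA-F held TTTCTCTTTC at -156 to -147 and no κB or TGACG match in the window. TAP1, at the further upstream of its start sites, held TTTCGATTTC and TTTCGCTTTC between -134 and -119 and the κB match GGGACTTTCC at -72 to -63, and no motif was matched before its other start site. TAPBP held GAAAGTGAAA at -20 to -11 and again at -14 to -5, with the κB match GGGGATTTCC at -56 to -47. TAP2 held GAAAGCGAAA at -58 to -49 and TGACG, but no κB or CCAAT match. Over 35116 promoter sequences of the same length, the long interferon element occurred in 3.02%, GAANNGAAA in 6.56%, the κB consensus in 6.88%, TGACG in 21.2% and CCAAT in 32%. These are matches of letters and were not tested as binding sites.

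The first question was how the levels of these genes compare between the lines. HLA-B and NLRC5 were close to absent in K562 and far higher in THP-1. HLA-C and TAP1 were lower in K562 by several fold. HLA-E, B2M, TAP2 and TAPBP were plainly expressed in both lines.

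**Figure D1:**
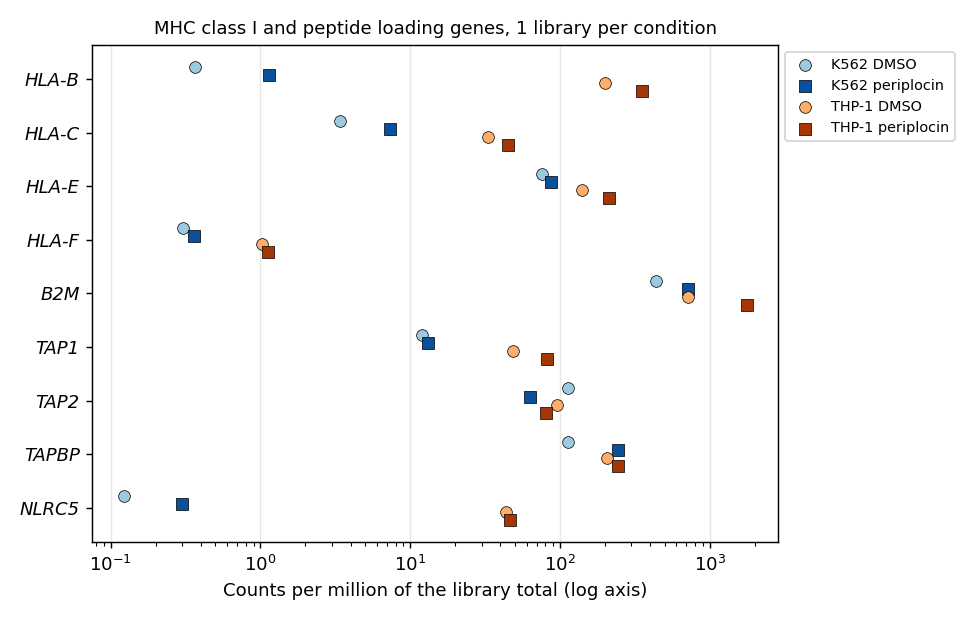
Level of each of the 9 genes in CPM (log axis) in the 4 libraries, with 1 point per library and no error bar because each condition has 1 library. HLA-B and NLRC5 run from under 1.2 CPM in both K562 libraries to at least 43.7 CPM in both THP-1 libraries, while TAP2 lies between 63.3 and 114 CPM in all 4.

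HLA-B encodes one of the classical heavy chains that present peptide to CD8 T cells. K562 held 6 of its counts in DMSO and 19 in periplocin, and THP-1 held 4110 and 6258, or 0.366, 1.15, 199 and 353 CPM. Both THP-1 libraries stood far above both K562 libraries. The log2 ratio of THP-1 over K562 was 9.18 in DMSO (interval 8.09 to 10.66) and 8.43 in periplocin (7.80 to 9.17). HLA-C, the other classical heavy chain measured, also engages killer cell receptors. K562 held 56 and 121 of its counts, DMSO first, and THP-1 held 686 and 802, or 3.42, 7.31, 33.3 and 45.3 CPM. The libraries of the lines did not overlap, and the log2 ratio was 3.40 in DMSO (3.01 to 3.82) and 2.80 in periplocin (2.53 to 3.09).

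HLA-E is a non-classical heavy chain that displays leader peptides of other class I chains to the CD94/NKG2A receptor. Its counts were 1242 and 1445 in K562, against 2909 and 3774 in THP-1, which are 75.8, 87.3, 141 and 213 CPM. Unlike HLA-B it was well expressed in K562, and the log2 ratio of the lines was 1.02 in DMSO (0.92 to 1.11) and 1.46 in periplocin (1.37 to 1.55). HLA-F, a further non-classical heavy chain, had 5 and 6 counts in K562 and 21 and 20 in THP-1, so it was scarce everywhere, at no more than 1.13 CPM. Its log2 ratio of 1.84 in DMSO had an interval from 0.41 to 3.62.

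Added over the 4 heavy chain genes, K562 held 1309 counts in DMSO and 1591 in periplocin, and THP-1 held 7726 and 10854. The log2 ratio of THP-1 over K562 for this sum was 2.35 in DMSO (2.27 to 2.44) and 2.85 in periplocin (2.77 to 2.92). The make-up of the sum differed as well. HLA-E gave 94.9% of it in K562 DMSO and 90.8% in K562 periplocin, against 37.7% and 34.8% in THP-1. HLA-B gave 0.458% and 1.19% in K562, against 53.2% and 57.7% in THP-1. B2M had 5.47 and 7.47 counts per heavy chain count in K562 and 1.90 and 2.88 in THP-1. These shares and ratios are of counts and were not divided by transcript length. The annotated transcript has 2601 bases in HLA-E, 1547 in HLA-B, 1536 in HLA-C, 1635 in HLA-F and 1705 in B2M. HLA-E therefore weighs more in them than it would per length. Per kilobase, HLA-B stood at 129 CPM and HLA-E at 54.2 in THP-1 DMSO, against 0.237 and 29.2 in K562 DMSO. The sum sets aside how reads were divided between these related genes. Of the 50-base stretches of the reference HLA-B transcript, 2.0% also occur exactly in the HLA-C transcript and 0.1% in that of HLA-E, and no stretch of 150 bases was shared between any pair of the 4. Class I genes are polymorphic, and how far the alleles of each line differ from the reference used for counting was not tested.

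**Figure D2:**
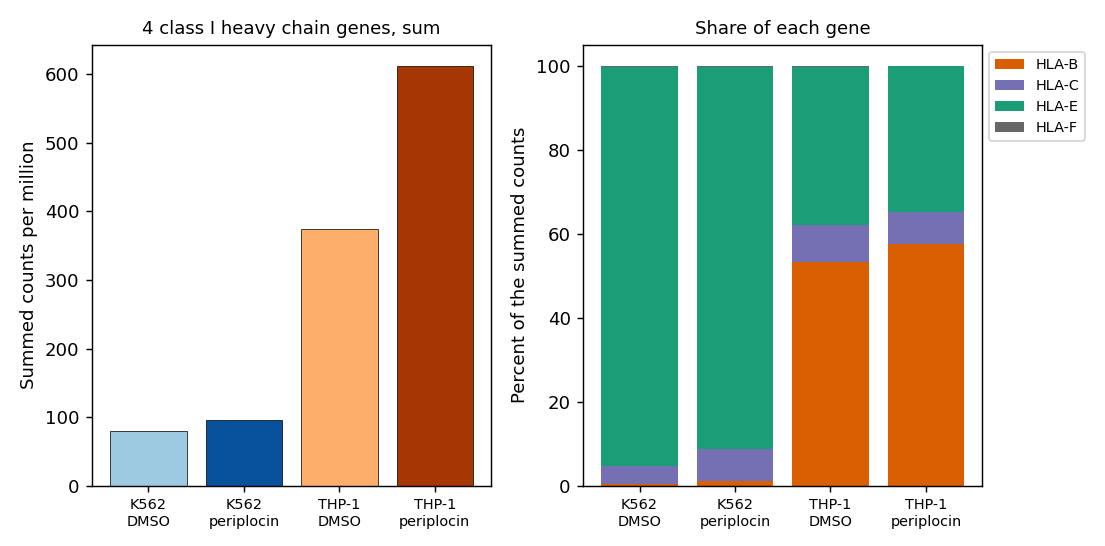
Left, CPM summed over HLA-B, HLA-C, HLA-E and HLA-F in each library, and right, the percent of that sum given by each gene, with 1 library per bar. Neither panel is scaled by transcript length. The sum is 79.9 and 96.1 CPM in K562 and 375 and 612 CPM in THP-1, and HLA-E makes up over 90% of it in K562 while HLA-B makes up over 50% in THP-1.

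B2M, the light chain that every class I molecule needs, was the most abundant of the 9 genes in each library. It had 7157 and 11886 counts in K562 and 14710 and 31282 in THP-1, or 437, 718, 713 and 1765 CPM. K562 in periplocin thus stood beside THP-1 in DMSO, and within each treatment THP-1 was higher, with a log2 ratio of 0.83 in DMSO (0.79 to 0.87) and 1.47 in periplocin (1.44 to 1.5). TAP1 had 196 and 218 counts in K562 and 1005 and 1459 in THP-1, which are 11.96, 13.2, 48.7 and 82.3 CPM. The lines did not overlap in TAP1, and the log2 ratio was 2.15 in DMSO (1.92 to 2.38) and 2.82 in periplocin (2.61 to 3.03).

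TAP2, its partner in the pump, did not follow TAP1. It had 1862 and 1048 counts in K562 and 1974 and 1440 in THP-1, or 114, 63.3, 95.7 and 81.3 CPM, so that the lines overlapped. The log2 ratio was -0.13 in DMSO (-0.22 to -0.03) and 0.53 in periplocin (0.42 to 0.65). TAPBP had 1849 and 4037 counts in K562 and 4281 and 4352 in THP-1, or 113, 244, 208 and 246 CPM. K562 in periplocin and both THP-1 libraries lay close together and K562 in DMSO was lowest. Its log2 ratio of the lines was 1.00 in DMSO (0.92 to 1.08), just under the threshold before rounding, and 0.18 in periplocin (0.12 to 0.25). NLRC5 had 2 and 5 counts in K562 and 901 and 828 in THP-1, or 0.122, 0.302, 43.7 and 46.7 CPM. Its log2 ratio was 8.52 in DMSO, with a wide interval of 6.75 to 11.65 because the K562 library held 2 counts, and 7.41 in periplocin (6.22 to 9.07).

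**Figure D3:**
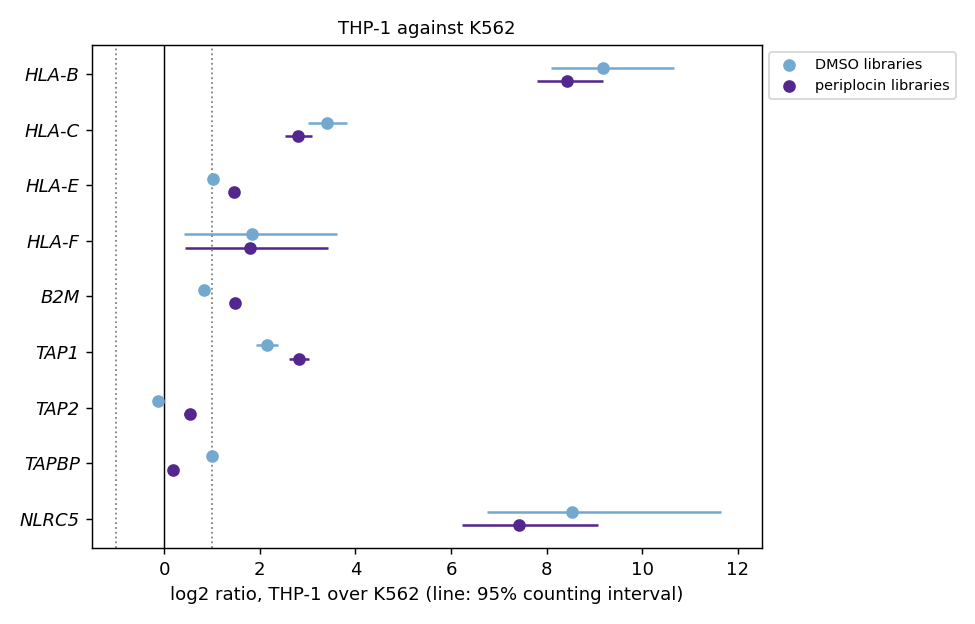
Log2 ratio of THP-1 over K562 for the 9 genes in the DMSO and in the periplocin libraries, with lines for the 95% counting interval and dotted lines at the threshold of 1 in either direction. HLA-B and NLRC5 lie beyond 7, HLA-C and TAP1 between 2 and 4, and TAP2 on either side of 0.

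In DMSO, 6 of the 9 genes were called higher in THP-1 and 0 lower, where 25.0% of all 13974 genes tested were called higher and 22.1% lower. The 6 were HLA-B, HLA-C, HLA-E, HLA-F, TAP1 and NLRC5. HLA-B, HLA-F and NLRC5 had fewer than 10 counts in K562 DMSO and entered only through THP-1, and so they had to differ. HLA-F and NLRC5 did the same in periplocin. With total counts in place of TMM the number was 5, since HLA-E went to 0.90, and with DESeq2's size factors it was 7. In periplocin, 7 of the 9 were called higher, where 26.9% of all genes were, and 0 lower, where 23.4% were. B2M joined the 6 genes there.

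A p-value for the line came from edgeR's quasi-likelihood test, in a model of all 4 libraries with a term for each factor. With 1 degree of freedom left over, its error measures unequal responses of the lines to periplocin, not a spread between replicates. THP-1 was higher at an adjusted p under 0.05 for 6 of the 9 genes and lower for 0, against 19.6% and 16.7% of the 13584 genes tested, of which 46.3% had an unadjusted p under 0.05. The 6 here were HLA-B (log2 ratio 8.71, adjusted p = 8.75e-05), NLRC5 (7.84, adjusted p = 1.88e-04), HLA-C (3.08, adjusted p = 0.00192), TAP1 (2.47, adjusted p = 0.00265), HLA-E (1.22, adjusted p = 0.0177) and B2M (1.13, adjusted p = 0.0319). The test did not call HLA-F (1.80, adjusted p = 0.156), TAPBP (0.58, adjusted p = 0.209) or TAP2 (0.19, adjusted p = 0.661). NLRC5 and HLA-F reached the filter of this fit only through the THP-1 libraries, so the direction of NLRC5 was set by the filter. DESeq2 with the same terms also called 6 higher and 0 lower.

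Levels can be compared between genes only per length, and here CPM were divided by the length of 1 annotated transcript per gene in kilobases. In K562 DMSO the order was B2M at 256 CPM per kilobase, TAPBP at 59.8, TAP2 at 45.5, HLA-E at 29.2, TAP1 at 4.04, HLA-C at 2.23, HLA-B at 0.237, HLA-F at 0.187 and NLRC5 at 0.0179. HLA-B and HLA-F are neighbours with 6 and 5 counts and cannot be ordered. In THP-1 DMSO B2M again came first at 418, followed by HLA-B at 129, TAPBP at 110, HLA-E at 54.2, TAP2 at 38.3, HLA-C at 21.7, TAP1 at 16.5, NLRC5 at 6.40 and HLA-F at 0.623. With no replicates, neighbours such as HLA-B and TAPBP cannot be separated beyond counting error. TAP2 stood at 45.5 and TAP1 at 4.04 in K562 DMSO. In THP-1 periplocin they stood at 32.5 and 27.8, with 1440 and 1459 counts, and cannot be ordered, since that order turns on the transcript lengths chosen.

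The next question was how these genes differed between periplocin and DMSO within each line. In K562, TAPBP, HLA-C and the few counts of HLA-B were called higher in the periplocin library. In THP-1, B2M was called higher there. TAP2 had the only negative log2 ratio of the 9 in both lines, and it did not reach the threshold in either.

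**Figure D4:**
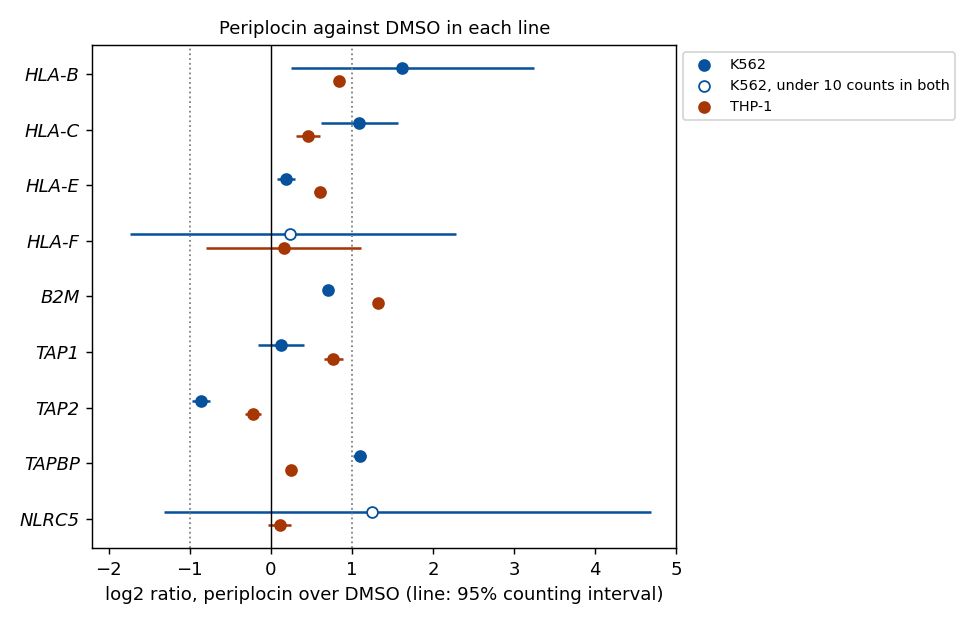
Log2 ratio of periplocin over DMSO for the 9 genes in K562 and in THP-1, with lines for the 95% counting interval, dotted lines at the threshold of 1 in either direction, and open points for genes with fewer than 10 counts in both libraries. HLA-B, HLA-C and TAPBP in K562 and B2M in THP-1 lie beyond 1, and TAP2 lies below 0 in both lines.

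In K562, TAPBP rose from 113 to 244 CPM, a log2 ratio of 1.10 (1.02 to 1.18). HLA-C rose from 56 to 121 counts, at 1.08 (0.62 to 1.57). HLA-B rose from 6 to 19 counts, at 1.62, and its interval of 0.26 to 3.25 shows how little these counts fix the size. B2M was higher without reaching the threshold, at 0.71 (0.66 to 0.75), and HLA-E moved little, at 0.19 (0.08 to 0.30). For TAP1 the interval included 0, at 0.13 (-0.16 to 0.41). TAP2 had a log2 ratio of -0.86 (-0.97 to -0.75), from 1862 to 1048 counts. HLA-F and NLRC5 held at most 6 counts in these libraries and were not tested.

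Of the 7 genes tested in K562, 3 were called higher, where 10.5% of 12736 genes were, and 0 lower, where 13.0% were. HLA-B entered only through the periplocin library, which set its direction. The same pair of libraries differed in other ways. Mitochondrially encoded genes took 5.62% of the counts in DMSO and 2.07% in periplocin. All 7 K562 markers rose, 6 of them past the threshold, with the sum of the 7 going from 1792 to 7967 CPM. Among the fibroblast and endothelial markers, DCN rose from 5 to 53 counts, at 3.35 (2.07 to 5.06), COL1A1 from 9 to 23 and VWF from 2 to 12. These 3 passed the count filter only through the periplocin library. PECAM1 went from 64 to 22, and COL1A2, which passed only through the DMSO library, from 19 to 9. The part of any of these differences in the class I values was not tested.

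In THP-1, B2M rose from 713 to 1765 CPM, a log2 ratio of 1.32 (1.29 to 1.35). Next came HLA-B at 0.84 (0.78 to 0.89), TAP1 at 0.77 (0.65 to 0.89), HLA-E at 0.61 (0.54 to 0.68) and HLA-C at 0.46 (0.31 to 0.60), all short of the threshold with intervals above 0. TAPBP was at 0.25 (0.19 to 0.32). NLRC5 was at 0.11 (-0.03 to 0.25) and HLA-F at 0.16 (-0.80 to 1.11), and both intervals included 0. TAP2 was at -0.22 (-0.32 to -0.13). Thus 1 of 9 genes was called higher, where 9.60% of 13367 genes were, and 0 lower, where 12.3% were. That share is near the background, although 8 of the 9 ratios lay above 0 and the median was 0.46, beside -0.03 and 48.2% above 0 over all genes tested. The mitochondrial share was 5.24% in DMSO and 3.92% in periplocin, and its part was not tested.

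The summed heavy chains had a periplocin log2 ratio of 0.26 in K562 (0.15 to 0.36) and 0.72 in THP-1 (0.68 to 0.76). The responses of the lines can be set side by side but not tested, since a term for their difference would leave no residual degree of freedom. The log2 response in THP-1 minus that in K562 was 0.61 for B2M (counting standard error 0.03), 0.63 for TAP2 (0.07), 0.64 for TAP1 (0.15) and 0.41 for HLA-E (0.07). It was -0.85 for TAPBP (0.05), -0.63 for HLA-C (0.24) and -0.78 for HLA-B (0.68), the last within its counting error. In the fit over the 4 libraries, edgeR's quasi-likelihood test called 0 of 13584 genes for treatment, with 11.3% at an unadjusted p under 0.05, and DESeq2 called 73 higher and 52 lower. None of the 9 genes was among the calls of either tool. B2M (log2 ratio 1.02, adjusted p = 0.376 in edgeR's test) and HLA-B (1.07, adjusted p = 0.384) were the 2 with an unadjusted p under 0.05.

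Genes that work beside the 9 were taken from lists and are given by their counts in the same comparisons. With periplocin, 10.5% of all genes tested were called higher and 13.0% lower in K562, and 9.60% and 12.3% in THP-1. The immunoproteasome replaces the catalytic subunits of the standard proteasome and favours peptides that fit class I. Of its 3 subunits and 2 activator subunits, 4 of 5 were called higher in THP-1 than in K562 in DMSO and 0 lower, where 25.0% and 22.1% of all genes were. The fifth, PSME2, was at 0.77. PSMB8 had 11 counts in each K562 library and 1912 and 1426 in THP-1, a log2 ratio of 7.22 in DMSO (6.39 to 8.23). PSMB9, whose gene faces TAP1 across a shared promoter, had 37, 29, 299 and 180 counts, at 2.80 (2.31 to 3.34), and PSMB10 had 190, 234, 1452 and 722, at 2.72 (2.50 to 2.95). The line term called these 3 genes (adjusted p from 1.03e-04 to 0.009, edgeR's quasi-likelihood test). With periplocin, PSME1 rose in K562 at 1.27 (1.12 to 1.42), and none of the 5 passed the threshold in THP-1, where PSMB10 was at -0.78. The standard subunits PSMB5, PSMB6 and PSMB7 had log2 ratios of THP-1 over K562 of -0.22, -0.70 and -1.33 in DMSO, and PSMB7 was called lower.

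Peptide loading helpers, chiefly chaperones and trimming enzymes of the endoplasmic reticulum, did not separate the lines. Of 8, 0 were called higher in THP-1 in DMSO, where 25.0% of all genes were, and 1 lower, where 22.1% were. The 1 lower was the chaperone HSPA5 at -1.59 (-1.63 to -1.55). The others ran from -0.17 for PDIA3 to 0.87 for TAPBPL, with CALR at 0.19, CANX at 0.55, ERAP1 at -0.16, ERAP2 at 0.42 and UGGT1 at -0.12. With periplocin in K562, 2 of the 8 were called higher and 1 lower, where 10.5% and 13.0% of all genes were. TAPBPL, a tapasin relative that edits peptides, rose at 1.15 (0.76 to 1.55). ERAP2, a peptide trimming enzyme, rose at 1.02 (0.71 to 1.33), while HSPA5 fell by 1.27 on the log2 scale. In THP-1 none of the 8 passed the threshold, where 9.60% of all genes were higher and 12.3% lower. TAPBPL was just below the threshold there at 0.98 (0.71 to 1.26).

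**Figure D5:**
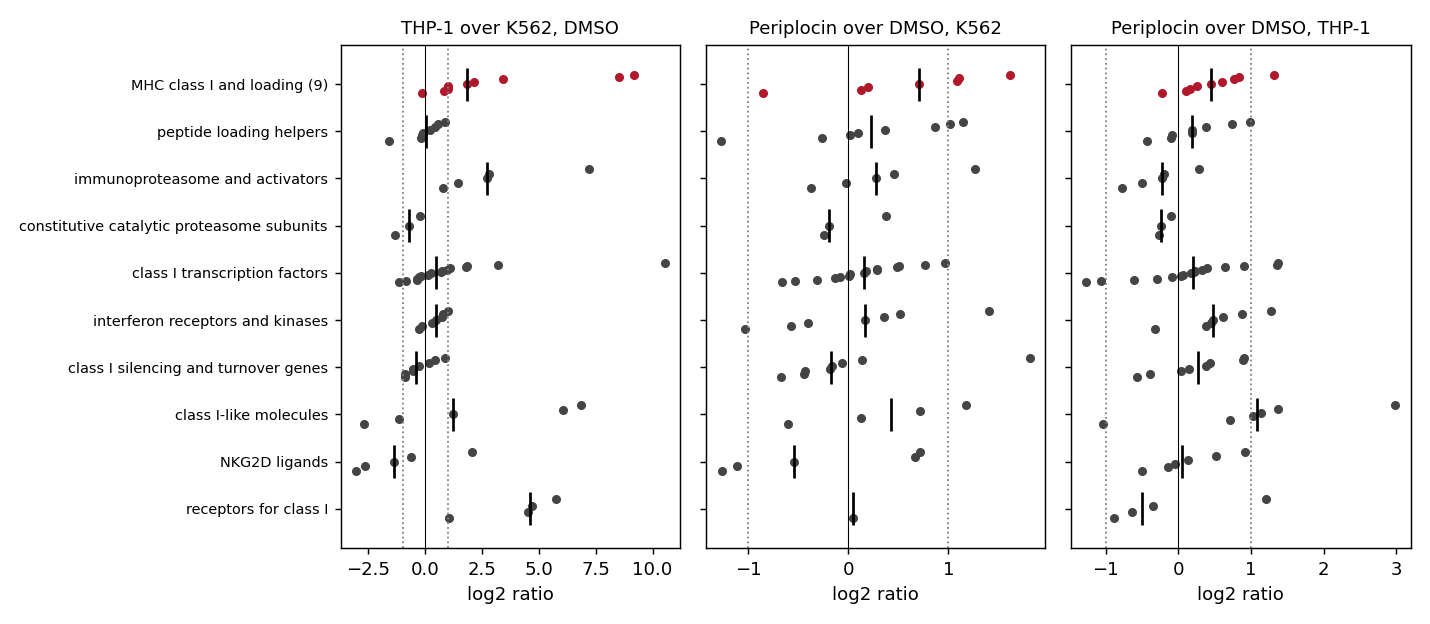
Log2 ratios of the genes that passed the count filter in the 9 genes (top row, red) and in the related lists, for THP-1 over K562 in DMSO and for periplocin over DMSO in each line, with 1 point per gene, a bar at each median and dotted lines at 1 in either direction. Genes at 0 counts in 1 library are drawn at their bound against 3 counts, as LILRB1, LILRB2 and LILRA1 are in the left panel, and the immunoproteasome genes lie to the right of the standard proteasome subunits there.

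Among 16 transcription factors of class I genes, 5 were called higher in THP-1 in DMSO, a share near the 25.0% of all genes. In the other direction 1 was called lower, where 22.1% of all genes were. With total counts the 5 became 4. IRF8, an interferon regulatory factor of monocytes, had 7 and 6 counts in K562 and 12161 and 4323 in THP-1, a log2 ratio of 10.53 (9.51 to 11.87). IRF8 passed the count filter only through THP-1, so its direction between the lines was set by the filter. NFYC, a subunit of the CCAAT-binding NF-Y complex, had 1450, 1351, 15309 and 13459 counts, at 3.19 (3.11 to 3.27), while NFYA was at 1.82 and NFYB at -0.38. RFX5, a partner of NLRC5 at class I promoters, was at 1.80 (1.69 to 1.90). With periplocin 0 of the 15 tested in K562 passed the threshold in either direction, where 10.5% of all genes were higher and 13.0% lower. In THP-1, 2 of the 16 were called higher and 2 lower, shares near the 9.60% and 12.3% of all genes. In THP-1, IRF9, part of the interferon-activated ISGF3 complex, rose from 374 to 828 counts, at 1.38 (1.20 to 1.56), as did IRF2 at 1.37, while IRF8 fell by 1.26 and RFXANK by 1.07 on the log2 scale. IRF2 and RFXANK complete that count and, like NFYB, were picked with their values in view. IRF1, a classical activator of class I genes and picked in the same way, was at 0.01 in K562 and 0.33 in THP-1.

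Of 7 interferon receptor and kinase genes, 1 was called higher in THP-1 in DMSO, where 25.0% of all genes were. That gene was IFNGR1, at 1.01 (0.86 to 1.16), a call lost at 0.89 with total counts. It rose with periplocin in THP-1 from 1210 to 2503 counts, at 1.28 (1.18 to 1.38). IFNGR2 was at 0.88, IFNAR2 at 0.62, JAK1 at 0.48, IFNAR1 at 0.45 and TYK2 at 0.38 in the same comparison. In K562, JAK2 rose from 1297 to 3508 counts, at 1.41 (1.32 to 1.5), and JAK1 fell from 3432 to 1708, by 1.03 on the log2 scale. Between the lines in DMSO, 25.0% of all genes were called higher in THP-1 and 22.1% lower. Among 8 genes that silence class I or remove it from the surface, 0 were called there in either direction. With total counts 2 of these 8 were lower in THP-1, EZH1 at -1.02 and MARCHF9, a ubiquitin ligase, at -1.03. EZH1, a catalytic subunit of Polycomb complex PRC2, rose with periplocin in K562 from 1031 to 3687 counts, at 1.81 (1.71 to 1.91), while the related EZH2 was at -0.43, SUZ12 at 0.13, EED at -0.06 and MARCHF9 at -0.67. In THP-1 none of the 8 passed the threshold, and SUSD6 and TMEM127, which act with WWP2 to send class I to degradation, were at 0.90 and 0.89.

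Molecules with a class I fold, most of which do not present ordinary peptides, were partly measurable, with 5 of 11 tested between the lines in DMSO. HLA-G, a heavy chain gene kept in this list, had at most 1 count in any library and was not tested. FCGRT, the neonatal Fc receptor heavy chain, which also pairs with β2-microglobulin, had 15 and 10 counts in K562 and 2003 and 4415 in THP-1, a log2 ratio of 6.84 (6.12 to 7.69), and rose with periplocin in THP-1 at 1.37 (1.29 to 1.45). MR1, which presents vitamin metabolites, had 1059, 2439, 2868 and 4982 counts, and rose with periplocin in both lines, at 1.18 in K562 (1.07 to 1.28) and 1.03 in THP-1 (0.96 to 1.09). CD1D, which presents lipids, had 1 and 2 counts in K562 and rose in THP-1 from 87 to 163, at 1.13 (0.75 to 1.53). CD1C went from 3 to 21 counts in THP-1, at 2.98 (1.29 to 5.43). It passed the count filter there only through the periplocin library, which set its direction. HFE was lower in THP-1 than in K562, at -2.68 (-3.83 to -1.71).

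Ligands of NKG2D, the activating receptor of natural killer cells, differed between the lines in both directions. Of 8, 5 were tested in DMSO, of which 3 were called lower in THP-1 and 1 higher, where 22.1% and 25.0% of all genes were. In periplocin 3 of 6 tested were lower and 2 higher, where 23.4% and 26.9% of all genes were. The 2 higher, ULBP3 and RAET1E, had 7 and 0 counts in K562 periplocin. They passed the count filter only through THP-1, so their direction was set by the filter. ULBP1 had 1009 and 428 counts in K562 and 141 and 173 in THP-1, a log2 ratio of -3.05 (-3.32 to -2.79). ULBP2 had 285, 478, 53 and 44 counts, at -2.64 (-3.09 to -2.21), and MICB had 629, 440, 279 and 215, at -1.38. ULBP3 was the 1 higher, at 2.06 (1.26 to 2.98), and MICA was at -0.62. With periplocin in K562, ULBP1 fell by 1.26 on the log2 scale and ULBP3, at 15 and 7 counts, by 1.11, with an interval that included 0. RAET1E, RAET1G and RAET1L had at most 13 counts in any library.

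Of the receptors that bind class I on leukocytes, 4 of the 7 in the table were tested between the lines in DMSO. All 4 were called higher in THP-1, where 25.0% of all genes were. LILRB1, LILRB2 and LILRA1 passed the count filter only through THP-1 and had to differ, and the fourth, CD160, was at 1.05 and goes to 0.93 with total counts. LILRB2 had 0 counts in both K562 libraries and 186 and 367 in THP-1, at least 53.6-fold higher in DMSO against a floor of 3 counts per library. LILRB1 had 91 and 50 counts in THP-1 and LILRA1 had 80 and 37, at least 26.2-fold and 23.0-fold higher in DMSO, with 0 counts in K562. LILRB2 rose with periplocin in THP-1 at 1.21 (0.95 to 1.47). CD160 had 20, 21, 48 and 32 counts, while KLRC1, KLRD1 and CD8A had at most 6, and LILRA3 was not analysed here.

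The genes whose pattern over the 4 libraries was most like that of HLA-B were found by the distance between log2 CPM values centred on each gene's mean, over 9781 other genes that averaged 10 CPM or more. They were CADM1 (0, 1, 257 and 528 counts, distance 0.315), CD4 (8, 19, 6262 and 7222, distance 0.448) and ALCAM (6, 14, 4344 and 4684, distance 0.466). For NLRC5 they were HNF4G (1, 3, 582 and 483 counts, distance 0.120), ACSL5 (3, 6, 1052 and 1199, distance 0.280) and DISC1 (3, 9, 1218 and 1454, distance 0.342). All runs of 4 counts put K562 before THP-1 and, within a line, DMSO before periplocin. Each likeness rests on 4 libraries and on few counts in K562.

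In GENCODE release 29 on GRCh38 the transcript HLA-B-249, used for length, lies on chromosome 6 from 31353872 to 31357187 on the minus strand, and HLA-C-201 from 31268749 to 31272086 on the same strand. The HLA-B gene is annotated from 31269491 because 1 further transcript reaches across HLA-C, so reads of the overlap could have been given to either gene. HLA-E lies on chromosome 6 from 30489467 to 30494205, TAP1 from 32845209 to 32853978, TAP2 from 32821833 to 32838780 and TAPBP from 33299694 to 33314387. HLA-F spans 29722775 to 29738528 on that chromosome. B2M lies on chromosome 15 from 44711487 to 44718877 and NLRC5 on chromosome 16 from 56989485 to 57083531.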

How the data were processed

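Poly-A RNA of K562 and THP-1 cells was measured in 4 groups of 1 library. The values the authors deposited are expected counts for each gene, without normalization or pooling, of which 87.4% to 88.3% are whole. The submitters' processing notes name HISAT2, StringTie 1.3.1 and hg38 without a role, and the annotation is not given in the sources used here. Expected counts were rounded. Symbols were matched for 19703 of 20348 identifiers and 20118 were found in GENCODE release 29. The table holds 0 unused columns.

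Ratios were computed with edgeR 4.0.16 in R 4.3.3 (TMM over the pair, default small prior count), with exact conditional binomial intervals at 95%. These cover counting error only, which estimated counts can exceed. The 4 libraries were fitted by edgeR's quasi-likelihood test with line and treatment, over the 13584 genes that reached 10 counts in 2 or more libraries, with Benjamini-Hochberg adjustment at 0.05. DESeq2 1.42.0 was the alternative. The ratios with their intervals and the line term of edgeR's fit were run on simulated data, which had less spread than that fit found here. The DESeq2 fit was not run on simulated data. Transcript length is that of the APPRIS principal transcript. Python 3.11.15, pandas 2.3.3 and matplotlib 3.10.9 were used for sequences and figures.

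The 9 genes and the lists, written from general knowledge, were chosen with earlier results of these data known. Named genes are the 9, each gene of a related list of 8 or fewer, the 5 largest changes of a longer one, and the 3 nearest patterns to HLA-B and NLRC5. The marker lists were summarized by count, with examples. 1 marker of the K562 list is not reported here.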

Additional observations from a re-analysis of the deposited data

Results flagged for a closer look

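Among the 9 genes and the named genes of the related lists, 66 in all with the line and cell type markers left aside, 13 had periplocin log2 ratios of opposite sign in the lines, with counting intervals that excluded 0 in both. None of the 9 class I and loading genes was among them. With 1 library per condition the difference was not tested for any of them. The log2 response in THP-1 minus that in K562 was 1.79 for ULBP1, 1.52 for JAK1, 1.46 for HSPA5, 1.34 for TMEM127, 1.19 for IFNAR2, 0.86 for IFNAR1, 0.54 for WWP2 and 0.17 for NFYC, whose ratios were below 0 in K562 and above 0 in THP-1. It was -1.73 for JAK2, -0.79 for UGGT1, -0.78 for NFYA, -0.68 for PSME2 and -0.64 for PSMB6, whose ratios were above 0 in K562 and below 0 in THP-1.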

How the results depend on the processing

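Total counts in place of TMM moved the median ratio of all genes by -0.12 in THP-1 over K562 in DMSO and by -0.17 in periplocin, and the summed heavy chains to 2.23 and 2.67 in these comparisons. With a threshold of 2 on the log2 scale, 0 of the 9 genes were called higher with periplocin in K562 and 0 in THP-1, and 4 were called higher in THP-1 over K562 in periplocin. At that threshold the calls over all genes were 413 higher and 461 lower with periplocin in K562, 424 and 423 in THP-1, 2264 and 1722 for THP-1 over K562 in DMSO, and 2457 and 1788 in periplocin. With no count filter, 2643 genes were higher and 2529 lower with periplocin in K562, and 2296 and 2498 in THP-1. For the treatment term, DESeq2 called 73 genes higher and 52 lower, and edgeR with no filter called 1 higher, where the fit as reported called 0. Of the other 112 values for counts and sums, each stayed within 1.5 times its reported count or within its counting interval. Among single genes, 205 values stayed within their interval or on their side of the threshold and 10 moved outside it, and none changed direction. With total counts TAPBP was at 0.01 for THP-1 over K562 in periplocin. In the related lists between the lines in DMSO, an alternative chosen after seeing the data, total counts ended the calls of IFNGR1, CREB1 at 0.97 and CD160, and added EZH1 and MARCHF9 as lower. No pairing of replicates was possible because each condition is 1 library. In the fit over the 4 libraries, the treatment term sets periplocin against DMSO within each line. Leaving out a library was not possible either, since it leaves a group empty. Depth limits HLA-B, HLA-F and NLRC5 in K562, which held 19 counts or fewer.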
